A study of Mus musculus with 15 samples.

Results

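Integrins are the transmembrane receptors that tie cells to the extracellular matrix, and laminins and nidogens are proteins of the basement membrane on which epithelial cells rest. The genes described here are the mouse genes whose symbols name an integrin alpha chain (Itga), an integrin beta chain (Itgb), a laminin alpha, beta or gamma chain (Lama, Lamb, Lamc) or a nidogen (Nid). In all, 31 such genes were listed in at least one of 2 RNA-Seq datasets, of 15701 genes listed in the whole series: 13 integrin alpha chains, 7 integrin beta chains, 9 laminin chains and 2 nidogens. Dataset 1, with the knockout lines, listed 29 of them among 13893 genes, and Dataset 2, on the PCBP1 knockdown, listed 31 among 15023. Lama2 and Lama3 were listed in Dataset 2 only.

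Every sample came from NMuMG, a normal murine mammary gland epithelial cell line. Dataset 2 held 2 shPCBP1 samples, in which an shRNA knocked down PCBP1, and 2 control samples, labelled as untreated NMuMG cells and described in the study's text as cells carrying a scrambled shRNA (called NMuMG here). In Dataset 1 every line carried the PCBP1 shRNA, the reference lines included. Its reference group was 4 shPCBP1 lines: the line left unaltered plus CT clones 1 to 3, which had received Cas9 without a gene-specific guide. Against it stood 3 clones labelled FAM3C KO, 3 labelled LIFR KO and a single line with both genes targeted (double KO). The knockouts were made by CRISPR with pairs of guides that cut out part of the coding sequence. Each clone was grown from a single colony and gave 1 RNA sample. In Dataset 1 p-values therefore measure the spread between lines, which includes the differences between single-cell derived lines. The Dataset 2 samples are labelled as replicates 1 and 2 of each group, so p-values there measure the spread between replicates. No label names a further line in either group, so a difference between the cell lines cannot be told apart from the knockdown. PCBP1 encodes hnRNPE1, an RNA-binding protein whose loss in these cells accompanies epithelial-to-mesenchymal transition (EMT). FAM3C is a secreted cytokine-like protein, and LIFR is the receptor of leukemia inhibitory factor, which signals through STAT3.

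An integrin is a pair of one alpha and one beta chain, and the pair sets the ligand. Itga1, Itga2, Itga10 and Itga11 pair with Itgb1 to bind collagens, Itga3, Itga6 and Itga7 pair with Itgb1 to bind laminins, and Itga5 pairs with Itgb1 to bind fibronectin. Itga6 also pairs with Itgb4 in hemidesmosomes, the junctions that anchor basal epithelial cells to laminin. Itgav pairs with Itgb1, Itgb3, Itgb5 or Itgb6 and binds proteins with an RGD sequence, among them latent TGF-beta. Itgal and Itgam pair with Itgb2 and Itgae pairs with Itgb7, mainly on leukocytes, and Itga2b pairs with Itgb3 on platelets. A laminin is a trimer of one alpha, one beta and one gamma chain. Lama3 and Lamb3 are chains of the laminin of epithelial hemidesmosomes, Lama5 with Lamb1 or Lamb2 and Lamc1 makes the common laminins of mature epithelial basement membranes, and nidogens link laminin to collagen IV.

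Levels are normalized counts scaled to a common library total (CPM) as deposited, and differences are log2 fold changes of CPM + 0.1 with their standard error (SE), on which the change of a gene at a low level comes out too small. A gene was called where its limma p, adjusted by the Benjamini-Hochberg method over all genes tested in that dataset, was under 0.07. Genes with a mean under 0.5 CPM were not tested. That left 27 of the 29 genes in Dataset 1 (not Itgal or Itgam) and 23 of the 31 in Dataset 2 (not Itga2b, Itga11, Itgae, Itgal, Itgam, Lama2, Lama3 or Lamc3). The datasets were normalized apart, and no level was compared between them.

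The lowest value of each library, taken as 1 read, implied library totals of 16031859 to 46901675 reads in Dataset 1. In Dataset 2 the commonest step between low values implied 53033517 to 56497175 reads. Pcbp1 stood at 287 and 312 CPM in NMuMG, against 14.1 and 14.2 CPM in shPCBP1 of Dataset 2. Fam3c ran from 47.0 to 59.4 CPM in the shPCBP1 lines and from 26.4 to 42.9 CPM in the FAM3C KO clones. Lifr ran from 25.8 to 40.2 CPM in the shPCBP1 lines and stood in LIFR KO clones 1 to 3 at 34.9, 29.3 and 14.6 CPM. The transcript level therefore did not set apart all the libraries labelled LIFR KO. The study reports that it screened candidate knockout lines by PCR at the cut-out part and then by immunoblotting. In FAM3C KO clones 1 to 3 Lifr was at 13.5, 10.5 and 19.2 CPM, below every shPCBP1 line, and in the double KO at 4.36 CPM. The study also reports lower LIFR mRNA after FAM3C knockout. The 3 libraries named next stood apart in Dataset 1. In LIFR KO clones 2 and 3 and the double KO, the log2 difference from the shPCBP1 mean fell with the GC content of the gene (Spearman coefficients of −0.758, −0.745 and −0.704 over 12581 genes, a description with no test), against 0.07 in LIFR KO clone 1 and −0.288 to 0.241 in the other libraries. The mitochondrial share of CPM was 5.09% to 6.04% in these 3 libraries and 2.47% to 3.07% in the others. The genes described here that were called in LIFR KO against shPCBP1 are given with a correction for GC content and for clone 1 alone. Other results that rest on these libraries are not all given in both ways. With clone 1 alone the LIFR KO arm is a single library with no spread of its own, so only the size of the difference is given for it. The epithelial marker Cdh1 had a mean of 300 to 328 CPM in the groups of Dataset 1. In Dataset 2 its mean was 234 CPM in NMuMG and 149 CPM in shPCBP1. Several epithelial keratins had lower means in LIFR KO and are given there.

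RefSeq gave promoters for 19 of the 31 genes (22 promoters, GRCm38.p6). The stretches before the first annotated exon are shown for Itga5, which rose most in shPCBP1 of Dataset 2, for Itga2, which differed in the opposite direction, and for the laminin beta chains Lamb1 and Lamb2, which stood apart in the FAM3C KO clones. They lie at chr15:103366792-103367041 (minus strand), chr13:114932101-114932350 (minus strand), chr12:31265043-31265233 (plus strand) and chr9:108479612-108479735 (plus strand). Capitals mark the E-box CANNTG, a motif bound by the EMT factors of the Snail, Zeb and Twist families, or the STAT motif TTCNNNGAA. Sequences run 5′ to 3′ on the strand of the gene. The genes themselves lie on chromosome 15, 103344286 to 103366763 (Itga5, ENSMUSG00000000555), chromosome 13, 114833081 to 114932100 (Itga2, ENSMUSG00000015533), chromosome 12, 31265234 to 31329644 (Lamb1, ENSMUSG00000002900) and chromosome 9, 108479736 to 108490530 (Lamb2, ENSMUSG00000052911) of GRCm38.
Itga5: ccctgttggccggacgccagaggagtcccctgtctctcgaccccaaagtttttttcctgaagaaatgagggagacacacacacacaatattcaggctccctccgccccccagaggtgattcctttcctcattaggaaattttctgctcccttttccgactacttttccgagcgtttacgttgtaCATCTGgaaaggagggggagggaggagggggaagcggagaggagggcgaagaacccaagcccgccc
Itga2: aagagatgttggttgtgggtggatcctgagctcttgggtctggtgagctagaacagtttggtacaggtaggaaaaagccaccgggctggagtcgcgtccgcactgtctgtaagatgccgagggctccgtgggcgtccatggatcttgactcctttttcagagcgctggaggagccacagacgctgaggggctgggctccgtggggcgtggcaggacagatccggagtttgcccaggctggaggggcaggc
Lamb1: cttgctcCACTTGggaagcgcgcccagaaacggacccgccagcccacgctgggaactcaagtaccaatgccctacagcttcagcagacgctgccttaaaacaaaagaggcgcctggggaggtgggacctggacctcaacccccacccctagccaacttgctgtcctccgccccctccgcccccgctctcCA
Lamb2: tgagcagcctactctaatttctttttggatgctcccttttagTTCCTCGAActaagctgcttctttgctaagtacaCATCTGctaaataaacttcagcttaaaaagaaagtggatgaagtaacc

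In the 250 bases before each RefSeq start, searched on both strands, an E-box was found in 17 of the 22 promoters of these genes and in 66.2% of all 32851 promoters. The STAT motif was found in 2 of the 22 (Lamb2 and Itga10) and in 7.02% of all promoters, and the AP-1 motif TGANTCA in 0 of the 22 and in 6.75% of all. The Lamb2 stretch holds one STAT motif and one E-box, the Itga5 stretch one E-box, the Lamb1 stretch one E-box and, at its end, the first 2 letters of another that runs on into the exon, and the Itga2 stretch none of the 3 motifs. A match is a string of letters and does not show that a factor binds there.

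The comparison of shPCBP1 with NMuMG asked which of these genes differ after loss of PCBP1. The fibronectin receptor chain Itga5 rose most, by 3.32 ± 0.082 on the log2 scale, the hemidesmosomal Itgb4 and the collagen receptor chains Itga1 and Itga2 fell by more than 1 on that scale, and every laminin chain tested was lower. Of the 23 genes tested, 22 were called, 10 higher and 12 lower, in a comparison in which 80.1% of all 11384 genes tested were called (42.1% higher and 38.0% lower). The count called is therefore read against a high background. At a change of at least 2-fold, 10 of the 23 were called against 14.6% of all genes, 4 higher (7.56% of all) and 6 lower (6.99% of all). The median size of the log2 fold change was 0.84 over the 23 genes and 0.36 over all genes. With 2 samples against 2, an exact permutation test of a single gene cannot give a p under 0.333, so the calls rest on the spread that limma shares between genes.

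**Figure D1:**
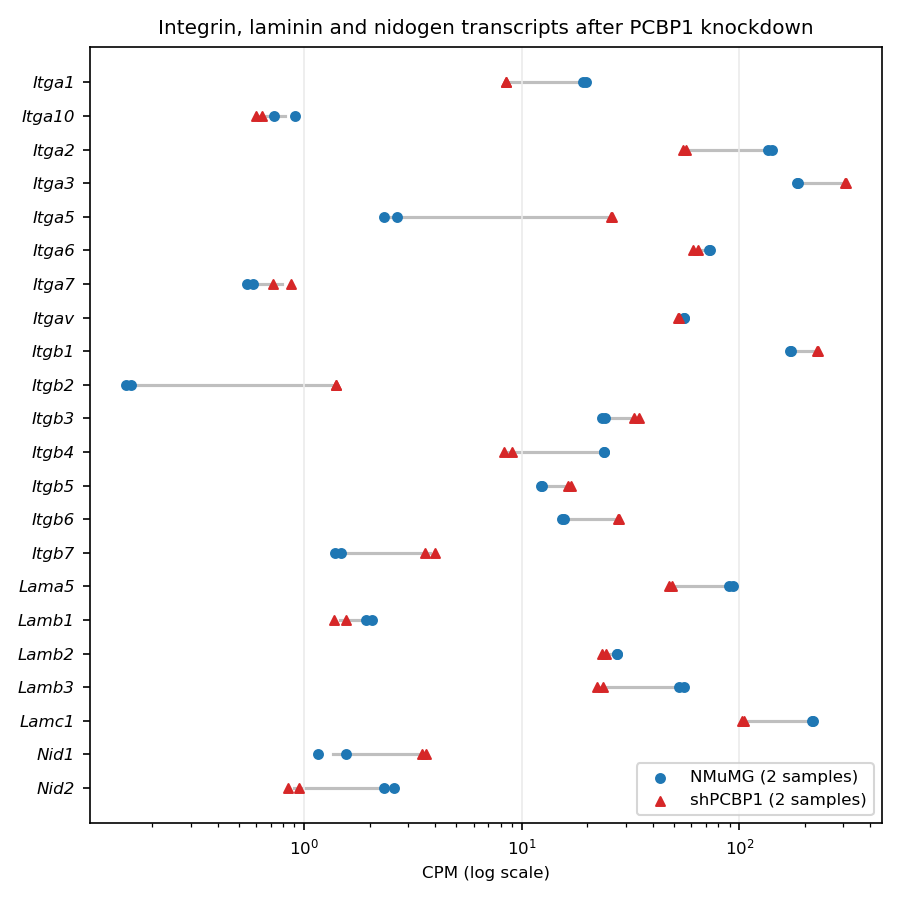
Level of 22 of the 23 tested genes in each sample of Dataset 2, in CPM on a log axis; circles are the 2 NMuMG samples, triangles the 2 shPCBP1 samples and grey bars join the group means. The samples of the groups do not overlap for any of the 23 genes, as for 89.0% of all genes tested, and the 5 laminin chains shown lie to the left in shPCBP1.

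Among the integrin alpha chains, Itga5, the fibronectin receptor chain, was at 2.32 and 2.68 CPM in the 2 NMuMG samples and at 25.6 and 25.9 CPM in the 2 shPCBP1 samples. This was the largest difference of the 23 genes, with a log2 fold change of 3.32 ± 0.082 (adjusted p = 4.36e-11). The laminin receptor chain Itga3 was at 183 and 186 CPM in NMuMG and 309 and 305 CPM in shPCBP1, a log2 change of 0.74 ± 0.021. Both were higher in shPCBP1, with both samples above both controls. The collagen receptor chains moved the other way. Itga2 fell from 141 and 136 CPM to 55.1 and 56.5 CPM, a log2 change of −1.30 ± 0.028 (adjusted p = 1.68e-11). Itga1, whose gene lies 20996 bp from Itga2 on chromosome 13, fell from 19.6 and 19.2 CPM to 8.43 and 8.48 CPM, a log2 change of −1.19 ± 0.056. Both shPCBP1 samples lay below both controls for each of these collagen receptor chains.

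The remaining alpha chains differed less. Itga6, which joins Itgb1 or Itgb4, was at 73.00 and 72.6 CPM in NMuMG and 64.3 and 60.9 CPM in shPCBP1, a log2 change of −0.22 ± 0.031. Itgav, the RGD receptor chain, was at 55.5 and 55.4 CPM and 52.1 and 52.5 CPM, a log2 change of −0.084 ± 0.028 (adjusted p = 0.0191). Both were called lower although the fold was small, and the call of Itgav was lost without shPCBP1 replicate 1 (adjusted p = 0.0883). Itga7, a laminin receptor chain known best from muscle, was at 0.584 and 0.547 CPM in NMuMG and 0.717 and 0.869 CPM in shPCBP1, a log2 change of 0.42 ± 0.17 (adjusted p = 0.0422). Its call was lost under quantile normalization (adjusted p = 0.874), without NMuMG replicate 2 (0.107) and without shPCBP1 replicate 2 (0.116), and one of its exons overlaps Mettl7b on the other strand. The one gene not called, the collagen receptor chain Itga10, was at 0.907 and 0.728 CPM and 0.640 and 0.602 CPM (adjusted p = 0.0885). The 5 alpha chains below the filter, Itga2b, Itga11, Itgae, Itgal and Itgam, stayed at or under 0.351 CPM in all 4 samples.

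All 7 integrin beta chains were tested and called, 6 higher and 1 lower. Itgb1, the partner of most alpha chains here, was at 169.8 and 173 CPM in NMuMG and 229 and 227 CPM in shPCBP1, a log2 change of 0.41 ± 0.022. The 3 further partners of Itgav also rose. Itgb6, which activates latent TGF-beta on epithelial cells, went from 15.2 and 15.7 CPM to 27.6 and 27.8 CPM (log2 fold change 0.84 ± 0.044). Itgb3, the vitronectin receptor chain, went from 24.00 and 23.4 CPM to 34.5 and 32.6 CPM (log2 fold change 0.50 ± 0.041), and Itgb5, another vitronectin receptor chain, from 12.3 and 12.3 CPM to 16.8 and 16.3 CPM (log2 fold change 0.43 ± 0.053). Itgav itself, their shared partner, was not higher. Platelets also use Itgb3, and 4 platelet markers summed to 2.58 to 2.76 CPM in NMuMG and 6.94 to 7.10 CPM in shPCBP1, nearly all of it Ppbp, with Pf4 at a mean of 0.0278 CPM or less in both groups; the part of these markers in the result was not tested. Itgb4, the hemidesmosomal chain, was the one beta chain that fell, from 23.8 and 23.96 CPM to 9.03 and 8.32 CPM, a log2 change of −1.45 ± 0.058 (adjusted p = 1.61e-09). Its alpha partner Itga6 fell by 0.22 on the log2 scale. Of 6 markers of basal mammary cells, which carry hemidesmosomes, Mylk fell with Itgb4 (means of 53.8 and 5.22 CPM), while the defining keratins Krt5 and Krt14 stood at or under 0.159 CPM in every sample.

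The 2 beta chains best known from leukocytes were higher at low levels. Itgb2 was at 0.159 and 0.151 CPM in NMuMG and 1.40 and 1.40 CPM in shPCBP1, a log2 change of 2.56 ± 0.17 that is understated at these levels. Itgb7 was at 1.38 and 1.47 CPM and 3.58 and 3.97 CPM, a log2 change of 1.34 ± 0.12. Their alpha partners Itgal, Itgam and Itgae did not pass the filter. Of the 10 leukocyte markers examined, 7 were listed in Dataset 2, with a summed level of 2.92 to 2.94 CPM in NMuMG and 3.01 to 3.52 CPM in shPCBP1. The defining leukocyte marker Ptprc stood at 0.0355 CPM or less in every sample of Dataset 2, and Cd68 was the one leukocyte marker called higher.

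The laminin chains were lower throughout. Lamc1, the laminin chain with the highest level per kb of transcript in this dataset, was at 215 and 217 CPM in NMuMG and 105 and 103 CPM in shPCBP1, a log2 change of −1.06 ± 0.023 (adjusted p = 1.75e-11). Lama5, the alpha chain of the common epithelial laminins, was at 89.99 and 92.96 CPM and 47.6 and 48.7 CPM, a log2 change of −0.92 ± 0.029. Of the chains of the hemidesmosomal trimer, Lamb3 fell from 55.5 and 52.7 CPM to 23.7 and 22.2 CPM, a log2 change of −1.23 ± 0.042. For each of these 3 chains both shPCBP1 samples lay far below both controls. Lamb2 fell from 27.5 and 27.3 CPM to 23.4 and 24.3 CPM (log2 fold change −0.20 ± 0.040). Lamb1 fell from 2.05 and 1.92 CPM to 1.56 and 1.37 CPM (log2 fold change −0.42 ± 0.13, adjusted p = 0.0139), a call that was lost without shPCBP1 replicate 2 (0.0777). All 6 laminin chains tested were called lower, where 38.0% of all genes were, with a median log2 fold change of −0.80 against 0.025 over all genes.

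The chains Lama2, Lama3 and Lamc3 fell below the filter, so the 6 that were tested are not the whole family. Lamc3 was at 0.124 and 0.170 CPM in NMuMG and 0.735 and 0.702 CPM in shPCBP1, higher in both shPCBP1 samples, with no test. Lama2 and Lama3 stayed at or under 0.0447 CPM in all 4 samples, so Lama3, the alpha partner of Lamb3, was hardly detected. The nidogens moved apart. Nid1 rose from 1.56 and 1.15 CPM to 3.48 and 3.62 CPM, a log2 change of 1.34 ± 0.15. Nid2 fell from 2.32 and 2.57 CPM to 0.843 and 0.943 CPM, a log2 change of −1.36 ± 0.14. Both were called with adjusted p at or under 7.84e-06, at levels under 4 CPM, and an exon of Nid2 overlaps Rtraf on the other strand. Whether reads were counted by strand is not given in the sources used here.

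Per kb of transcript, which allows levels of different genes to be compared, Itgb1 and Itga3 led the integrins in both groups, at 44.96 and 37.9 CPM per kb in NMuMG and 59.7 and 63.2 CPM per kb in shPCBP1 (means of 2). Itga2 stood at 19.4 CPM per kb in NMuMG and 7.85 in shPCBP1, while Itga5 went from 0.566 to 5.84 CPM per kb. Among laminin beta chains, Lamb3 made up 67.6% to 68.5% in NMuMG and 50.1% to 52.4% in shPCBP1, Lamb2 29.3% to 30.3% and 44.7% to 47.4%, and Lamb1 under 3% in both. These shares are descriptions with no test. The samples of the groups did not overlap for Lamb2 or Lamb3.

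**Figure D2:**
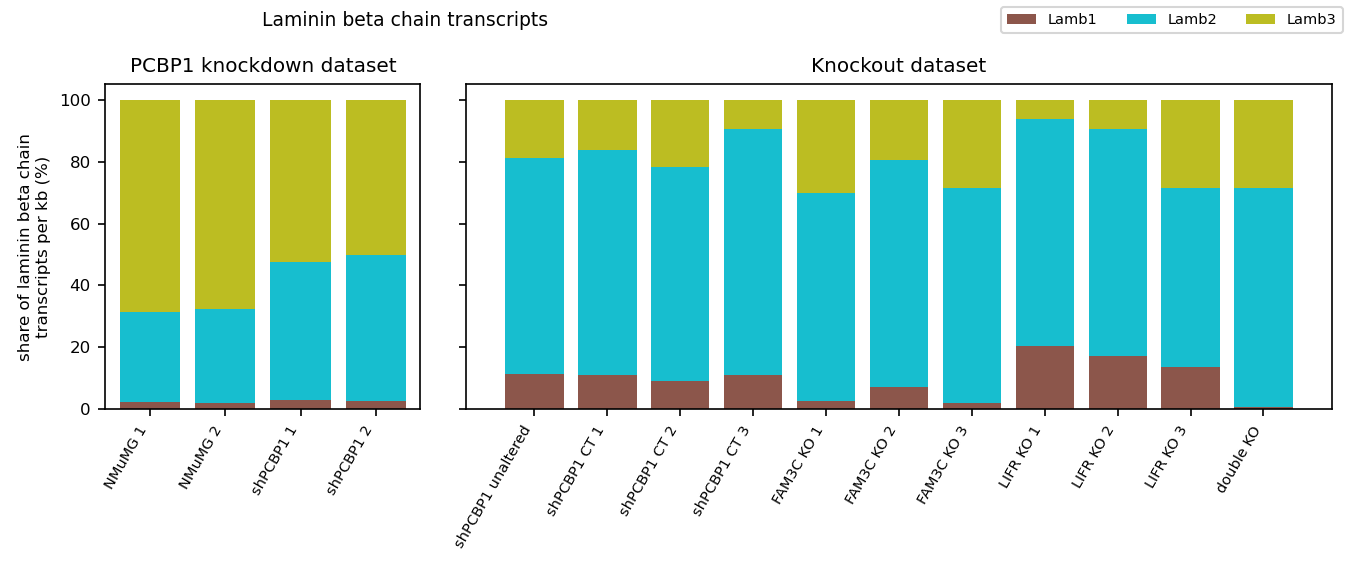
Share of each laminin beta chain in the summed level of Lamb1, Lamb2 and Lamb3 per kb of transcript, in percent, 1 bar per sample, with Dataset 2 on the left and Dataset 1 on the right. Lamb3 makes up a smaller share in shPCBP1 than in NMuMG, and the Lamb1 share is 1.91% to 7.09% in the FAM3C KO clones and 0.674% in the double KO against 9.13% to 11.3% in the shPCBP1 lines.

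The genes around these receptors were counted from lists of matrix partners, ligands and adaptors. Of 63 listed genes tested in Dataset 2, 47 were higher and 11 lower in shPCBP1, against 42.1% and 38.0% of all genes. Of 14 partners in the basement membrane, 12 were higher and 2 lower. Smoc1, a matricellular protein, had group means of 0.136 CPM in NMuMG and 19.5 CPM in shPCBP1, and Pxdn, the peroxidase that crosslinks collagen IV, was listed at 0 in NMuMG and had a mean of 10.6 CPM in shPCBP1. The netrin Ntn1 (means of 0.00953 and 1.25 CPM) and the collagen IV chain Col4a4 (0.245 and 1.62 CPM) were also higher. The 2 that fell were Agrn, a heparan sulfate proteoglycan that binds laminin, with a log2 fold change of −1.77 ± 0.022, and the collagen Col15a1, with −0.997 ± 0.13.

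Of 8 integrin ligands, 7 were higher and 1 lower. Fn1, fibronectin, the ligand of Itga5, had means of 10.7 CPM in NMuMG and 118 CPM in shPCBP1 (log2 fold change 3.45 ± 0.034). Tgfb1, the cytokine whose latent form binds Itgav pairs, had a log2 fold change of 1.97 ± 0.094, Ltbp1, which anchors that latent form in the matrix, 1.58 ± 0.050, and Icam1, a ligand of Itgb2 integrins, 1.36 ± 0.13. The one that fell was Mfge8, by 0.066 on the log2 scale. Of 27 adaptors and kinases at the cytoplasmic side, 19 were higher and 3 lower, with Tns4 (3.04 ± 0.15), Lims2 (3.02 ± 0.18) and Tns1 (1.39 ± 0.031), all adaptors of integrin adhesions, among the largest log2 fold changes. The hemidesmosome list stood against Itgb4, since its 3 tested members Plec, Dst and Cd151 were each called slightly higher, with log2 fold changes of 0.30 ± 0.029, 0.21 ± 0.024 and 0.12 ± 0.025. Of 11 other laminin receptors and tetraspanins, 6 were higher and 5 lower, with Mcam, a laminin receptor of the immunoglobulin family, at means of 0.0178 CPM in NMuMG and 1.86 CPM in shPCBP1, Lgals3 at a log2 fold change of 0.90 ± 0.022, Cd44 at 0.83 ± 0.028 and Sdc2 at −0.43 ± 0.19. Of 8 mesenchymal markers, the 5 tested were all higher (Snai1 3.33 ± 0.17, Zeb2 1.54 ± 0.067 and Vim 1.19 ± 0.026). Below the filter, Twist1 and Pdgfrb stood at the lowest value in NMuMG and had means of 0.328 and 0.182 CPM in shPCBP1. Pdgfra, also below the filter, went the other way, with means of 0.539 CPM in NMuMG and 0.027 CPM in shPCBP1. Of 5 tested epithelial markers 4 were lower (Cdh1 −0.65 ± 0.022) and 1 higher. In these bulk samples, fewer cells of a kind and less RNA per cell cannot be told apart.

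In Dataset 1 the 4 shPCBP1 lines were themselves unequal for several of these genes. The highest line was at least 2-fold above the lowest for 7 of the 27 genes tested (25.9%) and for 9.02% of all 12621 genes tested. The median ratio of highest to lowest was 1.44 over the 27 genes and 1.23 over all. Itgb7 was at 13.4, 7.76, 28.9 and 43.4 CPM in the unaltered line followed by CT clones 1 to 3, the widest range of the better expressed genes. Itga2 was at 115, 88.4, 92.6 and 53.01 CPM and Lamb3 at 16.9, 15.9, 22.2 and 8.80 CPM, and CT clone 3 was the lowest line for both. The other 4 genes were at low levels, with Itgb2 at 1.77 to 4.69 CPM, Itga7 at 0.810 to 2.93 CPM, Nid2 at 0.278 to 1.25 CPM and Lamc3 at 0.426 to 0.970 CPM. Lamb1, by contrast, stood at 12.2, 12.8, 11.1 and 12.02 CPM. Per kb of transcript, the integrins Itga3 and Itgb1 (means of 142 and 102 CPM per kb) and the laminins Lama5 and Lamc1 (37.98 and 28.8 CPM per kb) led these lines.

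**Figure D3:**
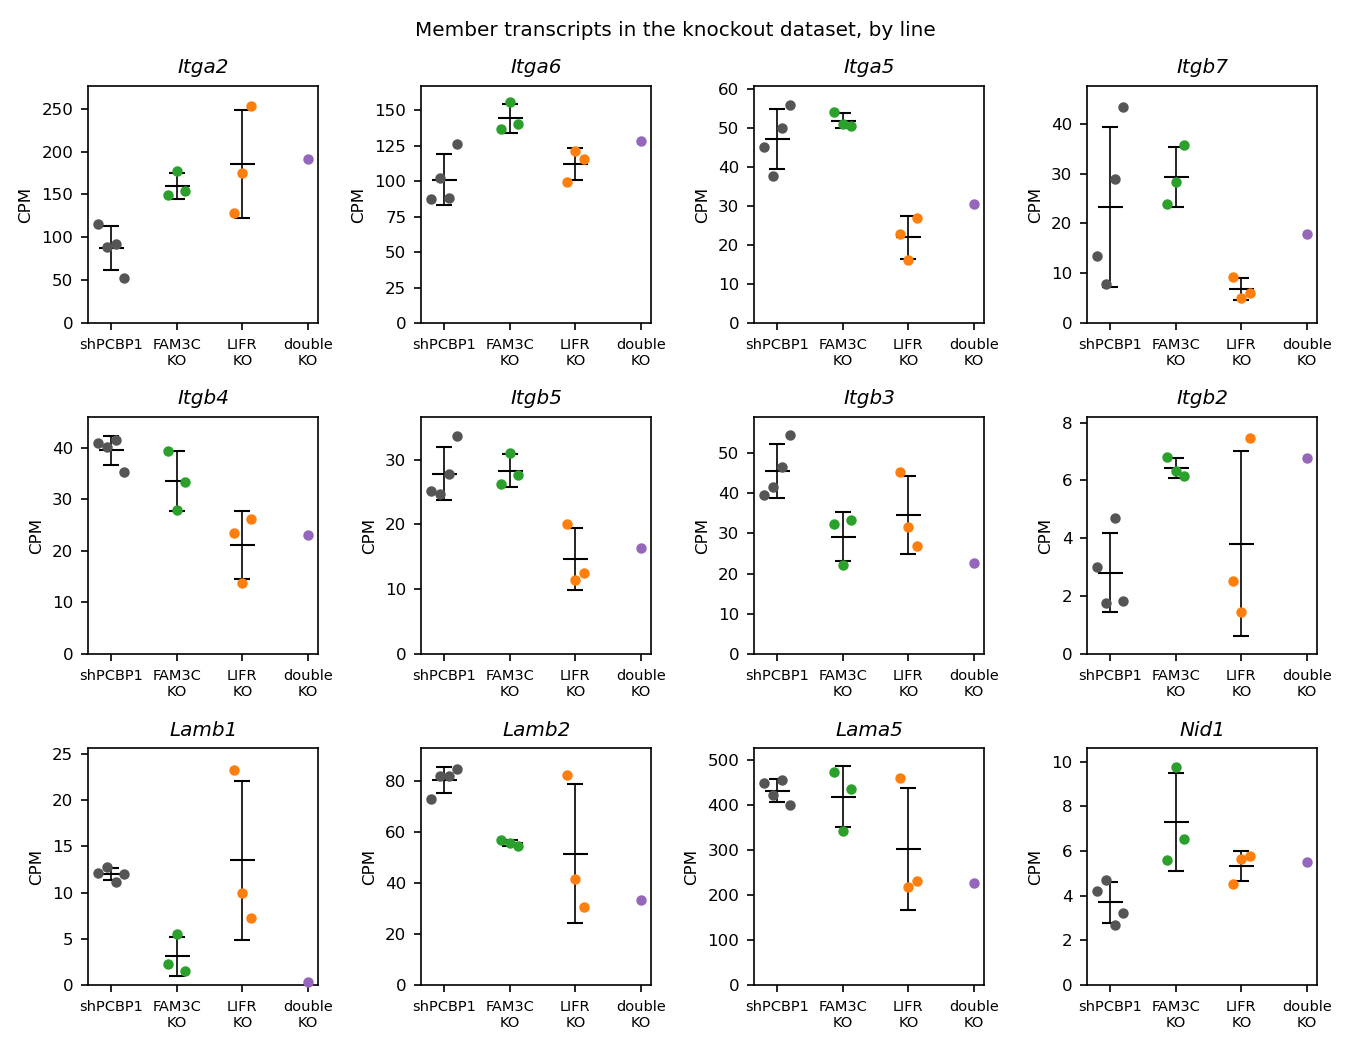
Level of 12 genes in every line of Dataset 1, in CPM on linear axes that start at 0; points are single lines, and bars give the mean and SD of the 4 shPCBP1 lines, the 3 FAM3C KO clones and the 3 LIFR KO clones, with the single double KO line shown without error. Lamb1 is at 11.1 to 12.8 CPM in the shPCBP1 lines and at 1.54 to 5.52 CPM in the FAM3C KO clones, and Itga5 is at 16.1 to 27.0 CPM in the LIFR KO clones against 37.7 to 55.9 CPM in the shPCBP1 lines.

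The comparison of FAM3C KO with shPCBP1 asked which genes depend on FAM3C in cells with PCBP1 knocked down. None of the 27 genes passed the threshold in the fit of all 3 groups, although the laminin chain Lamb1 had the largest log2 fold change of them, −2.12, with every FAM3C KO clone below every shPCBP1 line. In that fit 39 of 12621 genes were called (0.309%) by limma, 11 higher (0.0872%) and 28 lower (0.222%). At an unadjusted p under 0.05 there were 6 of the 27 genes and 10.2% of all genes. The samples of the 2 groups did not overlap for 8 of the 27 genes, against 22.7% of all. Itga2, Itga6, Itga11, Itgb2 and Nid1 were higher in every FAM3C KO clone (5 of 27, against 10.1% of all), and Lamb1, Lamb2 and Itgb3 lower (3 of 27, against 12.5% of all). With 4 samples against 3, an exact permutation test of a single gene cannot give a p under 0.0286.

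The spread shared in that fit included the LIFR KO clones, and the count of calls depended on which of them were in it. With shPCBP1 and FAM3C KO fitted alone, 1048 genes and 7 of the 27 were called: Lamb2 (adjusted p = 0.00506), Lamb1 (0.0152), Itga6 (0.0489), Itga2 (0.0507), Itgb2 (0.0529), Itgb3 (0.0539) and Nid1 (0.0594). Without LIFR KO clones 2 and 3 in the fit, a setting chosen after seeing the data, 1060 genes and again 7 of the 27 were called. With the correction for GC content, 237 genes and 1 of the 27, Lamb1 (adjusted p = 0.0465), were called.

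Lamb1, a chain of the common epithelial laminins, was at 12.2, 12.8, 11.1 and 12.02 CPM in the 4 shPCBP1 lines and at 2.26, 5.52 and 1.54 CPM in FAM3C KO clones 1 to 3. Every FAM3C KO clone lay far below the lowest shPCBP1 line, clone 2 the least. The log2 fold change was −2.12 ± 0.44 (adjusted p = 0.106), the largest in size of the 27 genes in this comparison. Lamb1 passed the threshold in 3 of the 10 fits that left out 1 library, with a log2 fold change between −2.62 and −1.73 and an adjusted p between 0.0314 and 0.365. These were the fits without FAM3C KO clone 2 (adjusted p = 0.0622), LIFR KO clone 1 (0.0445) or LIFR KO clone 3 (0.0314), and Lamb2 was called as well without LIFR KO clone 1. The 12 other genes tested within 1 Mb of Lamb1 on chromosome 12 had a median log2 fold change of 0.14 and none was called. Lamb2 was at 73.1, 82.2, 81.9 and 84.7 CPM in the shPCBP1 lines and at 57.04, 55.7 and 54.4 CPM in FAM3C KO, close together and below every shPCBP1 line (log2 fold change −0.53 ± 0.26, adjusted p = 0.53). The third beta chain, Lamb3, overlapped between the groups, at 22.01, 12.6 and 19.4 CPM in FAM3C KO (log2 fold change 0.21 ± 0.38). Per kb, Lamb1 made up 9.13% to 11.3% of the beta chains in the shPCBP1 lines and 1.91% to 7.09% in the FAM3C KO clones. Of the other chains, log2 fold changes were −0.059 ± 0.23 for Lama5 (475, 343 and 437 CPM against 449.5, 423, 456 and 401 CPM), −0.027 ± 0.16 for Lamc1 (237, 180.5 and 233 CPM against 212, 212, 228 and 225 CPM) and 0.63 ± 0.38 for Lamc3 (0.886 to 1.60 CPM against 0.426 to 0.970 CPM), and none of these 3 separated the groups.

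Among the integrins, Itgb3, the vitronectin receptor chain, was at 39.5, 41.6, 46.5 and 54.6 CPM in the shPCBP1 lines and at 32.3, 22.1 and 33.2 CPM in FAM3C KO (log2 fold change −0.65 ± 0.20, adjusted p = 0.263). Of 4 platelet markers 2 were listed, and they went opposite ways. Ppbp had means of 9.05 CPM in shPCBP1 and 3.89 CPM in FAM3C KO (log2 fold change −1.31 ± 0.37, adjusted p = 0.228 by limma). Itga2b had means of 1.108 and 1.445 CPM (log2 fold change 0.36 ± 0.24). Their sum, mostly Ppbp, was 9.32 to 12.3 CPM in shPCBP1 and 3.44 to 6.42 CPM in FAM3C KO. The part of these markers in the result was not tested. The collagen receptor chain Itga2 was at 149, 178 and 154 CPM in FAM3C KO, above all of the shPCBP1 lines (log2 fold change 0.93 ± 0.27, adjusted p = 0.235). The laminin receptor chain Itga6 was at 87.6, 102, 88.2 and 126 CPM in shPCBP1 and 136, 155 and 141 CPM in FAM3C KO (log2 fold change 0.53 ± 0.14, adjusted p = 0.185). These 3 separated the groups, with the gap for Itga6 narrowed by CT clone 3. Itgb2, the leukocyte beta chain, was at 2.99, 1.77, 4.69 and 1.82 CPM in shPCBP1 and 6.82, 6.32 and 6.15 CPM in FAM3C KO (log2 fold change 1.27 ± 0.49, adjusted p = 0.384). Summed leukocyte markers (5 of 10 listed) were at 10.8 to 13.4 CPM in shPCBP1 and 8.77 to 14.2 CPM in FAM3C KO. Nid1 was at 4.23, 4.69, 2.67 and 3.22 CPM in shPCBP1 and 5.62, 9.76 and 6.53 CPM in FAM3C KO (log2 fold change 0.95 ± 0.24, adjusted p = 0.174), higher in every FAM3C KO clone. Itga11, a collagen receptor chain, rested on a narrow gap, at 2.13 to 2.37 CPM in shPCBP1 and 2.56 to 3.06 CPM in FAM3C KO.

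The other integrins overlapped between shPCBP1 and FAM3C KO. The fibronectin receptor chain Itga5 was at 45.04, 37.7, 49.9 and 55.9 CPM in shPCBP1 and 54.1, 51.1 and 50.4 CPM in FAM3C KO (log2 fold change 0.15 ± 0.18), and its partner Itgb1 at 373, 414, 362 and 401 CPM and 393, 486 and 381 CPM (0.11 ± 0.14). The laminin receptor chain Itga3 was at 673, 688, 623 and 778 CPM and 684, 783 and 667 CPM, and Itgav, the RGD receptor chain, at 146, 162, 142 and 170.5 CPM and 159, 181 and 166 CPM. For these 4 chains the clones of one group lay among those of the other. Itgb4 was at 40.98, 40.3, 41.5 and 35.3 CPM and 39.4, 27.9 and 33.4 CPM, Itgb5 at 25.1, 24.7, 27.8 and 33.6 CPM and 26.2, 31.04 and 27.7 CPM, Itgb6 at 40.98, 32.2, 41.2 and 25.1 CPM and 42.96, 21.8 and 45.3 CPM, and the collagen receptor chain Itga1 at 25.7, 27.98, 18.6 and 17.02 CPM and 24.96, 15.5 and 20.2 CPM. Itgb7 was at 23.9, 28.2 and 35.8 CPM in FAM3C KO, within the range of the shPCBP1 lines. The low-level chains Itga2b, Itga7, Itga10 and Itgae and the nidogen Nid2 also overlapped, with adjusted p between 0.556 and 0.898. In shPCBP1 and FAM3C KO, Itga2b ran from 0.936 to 1.33 CPM and from 1.23 to 1.60 CPM, Itga10 from 1.75 to 3.38 CPM and from 1.14 to 2.31 CPM, and Itgae from 1.90 to 3.20 CPM and from 1.95 to 2.40 CPM. Itga7, a laminin receptor chain, read 2.93, 0.810, 2.51 and 0.962 CPM in the reference lines against 4.52, 1.68 and 4.96 CPM in FAM3C KO, and Nid2 1.25, 0.278, 0.648 and 0.379 CPM against 0.489, 0.321 and 0.270 CPM. In the lists of surrounding genes, 0 of 67 tested were called by limma, with and without the GC correction, where 0.309% of all genes were called without it.

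**Figure D4:**
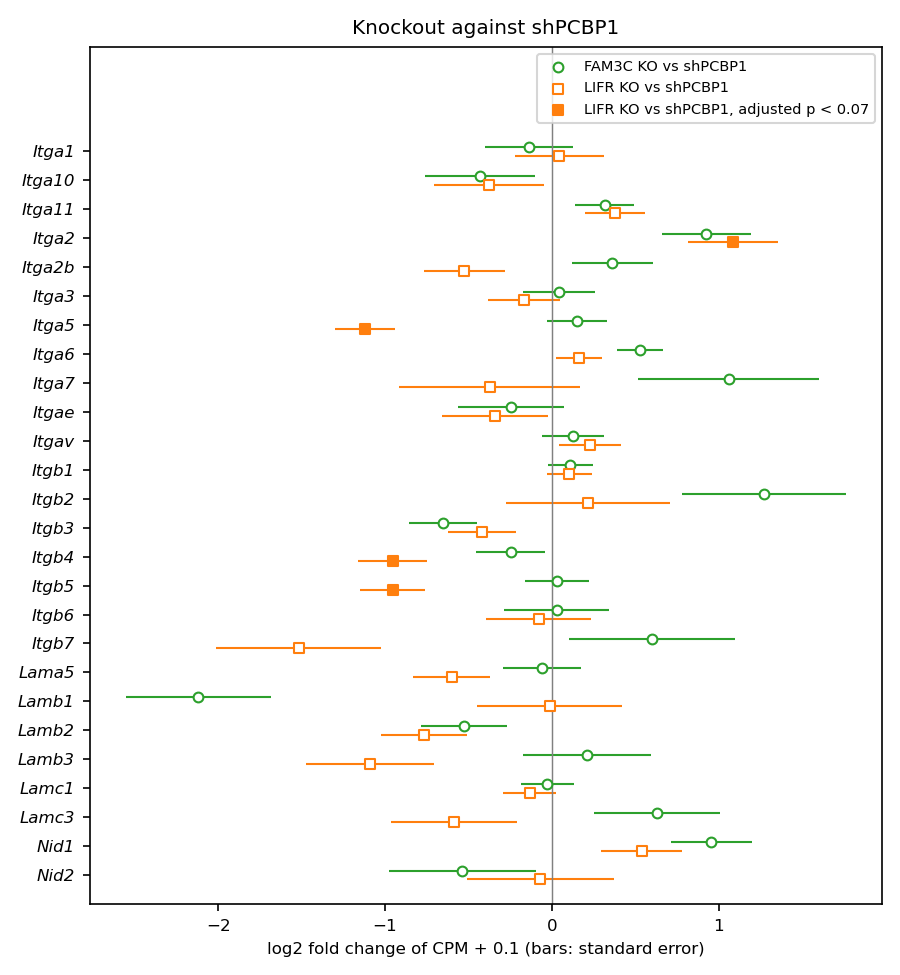
Log2 fold change of CPM + 0.1 against the 4 shPCBP1 lines for 26 of the 27 tested genes, with FAM3C KO as circles and LIFR KO as squares; bars are the standard error and filled symbols are past an adjusted p of 0.07. Only 4 LIFR KO values are filled (Itga2, Itga5, Itgb4 and Itgb5), and Lamb1 in FAM3C KO, at −2.12, is the farthest from 0.

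The comparison of LIFR KO with shPCBP1 asked the same of LIFR. Itga5, Itgb4 and Itgb5 were lower in the LIFR KO clones, by about 1 on the log2 scale, and Itga2 was higher by a like amount. These were the 4 of 27 genes that were called, where 6.47% of all genes were (0.911% higher and 5.55% lower). With shPCBP1 and LIFR KO fitted alone, limma called 35 genes and 0 of the 27. The adjusted p in that limma fit was 0.0823 for Itga5, 0.109 for Itgb4 and Itgb5 and 0.126 for Itga2. The samples of the groups did not overlap for 6 of the 27, against 17.2% of all, 2 higher (3.95% of all) and 4 lower (13.2% of all). The 2 that were not called were Itga11 (higher) and Itga2b, which platelets use (0.643 to 0.912 CPM in LIFR KO, log2 fold change −0.52, which turned to 0.063 with the GC correction). The median log2 fold change over all genes was −0.16, so differences are to be read against a shift of that size. Median-ratio rescaling moved that median to −0.0055 and the split of calls from 115 higher and 701 lower to 180 and 287, while the same 4 genes remained called, with log2 fold changes of −0.96 for Itga5, −0.79 for Itgb4, −0.79 for Itgb5 and 1.24 for Itga2. Of the epithelial markers tested, Krt18, Krt8 and Krt19 had lower means as well. In shPCBP1 and LIFR KO, Krt18 had 958 and 596 CPM (log2 fold change −0.72 ± 0.20, adjusted p = 0.0663 by limma, called). Krt8 had 689.7 and 369 CPM (−0.96 ± 0.27, adjusted p = 0.0701) and Krt19 819.8 and 486 CPM (−0.80 ± 0.29, adjusted p = 0.0967). Krt7 had a higher mean, with 2.17 and 2.71 CPM (0.39 ± 0.37, not called), and Cdh1 had 308 and 300 CPM (−0.040 ± 0.14, not called). Summed over the 6 of 8 epithelial markers listed, the level was 2467 to 3169 CPM in shPCBP1 and 1214 to 2095 CPM in LIFR KO, and the part of this in the results on LIFR KO was not tested. The count turned on single libraries: without LIFR KO clone 1, 14 of the 27 genes and 7234 genes in all were called, and without the unaltered line, CT clone 2 or CT clone 3, 0 of the 27. Itga5 was the only one of the 27 called without FAM3C KO clone 1 or 3, LIFR KO clone 2 or CT clone 1.

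Itga5, the fibronectin receptor chain, was at 45.04, 37.7, 49.9 and 55.9 CPM in the 4 shPCBP1 lines, while LIFR KO clones 1 to 3 gave 22.7, 16.1 and 26.97 CPM. All 3 clones lay below the lowest shPCBP1 line, clone 1 included. The log2 fold change was −1.12 ± 0.18 (adjusted p = 0.0305 by limma). With the GC correction it was −0.58 (adjusted p = 0.18), and the call was lost. With clone 1 alone, a single library, it was −1.03. Without the unaltered line, CT clone 2 or CT clone 3 the adjusted p of Itga5 was 0.0913, 0.109 and 0.0862. Itgb1, the partner of Itga5, was at 355, 405 and 501 CPM, around the level of the shPCBP1 lines (log2 fold change 0.10 ± 0.14).

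Itgb4, the hemidesmosomal chain, was at 40.98, 40.3, 41.5 and 35.3 CPM in shPCBP1 and 23.4, 13.7 and 26.2 CPM in LIFR KO (log2 fold change −0.95 ± 0.21, adjusted p = 0.0435). Itgb5, the vitronectin receptor chain, was at 25.1, 24.7, 27.8 and 33.6 CPM in shPCBP1 and 20.1, 11.4 and 12.4 CPM in LIFR KO (log2 fold change −0.95 ± 0.19, adjusted p = 0.0388). Both were lower in all 3 clones. The GC correction gave −0.28 for Itgb4 (adjusted p = 0.509 by limma) and −0.43 for Itgb5 (adjusted p = 0.144), so neither gene stayed called. With clone 1 alone, a single library, the log2 fold changes were −0.75 for Itgb4 and −0.45 for Itgb5. The exons of Itga5, Itgb4 and Itgb5 hold 57.26%, 60% and 56.98% GC, and those of Itga2 43.7%. In leaving out 1 library at a time, the calls of Itgb4 and Itgb5 were each lost in 7 of 10 fits, with adjusted p up to 0.13 and 0.142. The part of the GC shift in these differences was not tested beyond the correction.

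Itga2, the collagen receptor chain, was at 115, 88.4, 92.6 and 53.01 CPM in shPCBP1 and 128, 175 and 253 CPM in LIFR KO, higher in all 3 clones (log2 fold change 1.08 ± 0.27, adjusted p = 0.0549). The size of this difference changed little with the GC correction, at 0.97 (adjusted p = 0.11 by limma), but the call was lost. It was also lost in 9 of the 10 fits that left out 1 library (adjusted p up to 0.198). With clone 1 alone, a single library, the log2 fold change was 0.61. Its neighbour Itga1 was at 25.7, 27.98, 18.6 and 17.02 CPM in shPCBP1 and 17.9, 18.7 and 34.1 CPM in LIFR KO, with the groups overlapping. The collagen receptor chain Itga11 was at 3.59, 2.79 and 2.53 CPM against 2.37, 2.20, 2.26 and 2.13 CPM in shPCBP1, and it was called with the GC correction, at 0.85 (adjusted p = 0.059), and under quantile normalization, at 0.64 (adjusted p = 0.0668).

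Several chains were lower in LIFR KO clones 2 and 3 but not in clone 1, and these were the clones with the GC shift. Lama5 was at 459.7, 217 and 232 CPM in clones 1 to 3 against 449.5, 423, 456 and 401 CPM in shPCBP1. Lamb2 was at 82.4, 41.8 and 30.5 CPM against 73.1, 82.2, 81.9 and 84.7 CPM, and Lamb1 at 23.3, 9.94 and 7.25 CPM against 12.2, 12.8, 11.1 and 12.02 CPM. For these laminin chains clone 1 was within or above the range of the shPCBP1 lines while clones 2 and 3 were below them. The laminin receptor chain Itga3 showed the same order, at 960.0, 489 and 489 CPM against 673, 688, 623 and 778 CPM, as did Lamc1, at 264, 175 and 172 CPM against 212, 212, 228 and 225 CPM, and Itgb3, at 45.4, 31.7 and 26.8 CPM against 39.5, 41.6, 46.5 and 54.6 CPM, with clone 1 within the reference range for Itgb3. With the GC correction the log2 fold changes were 0.068 for Lama5, −0.15 for Lamb2, 0.31 for Lamb1 and −0.12 for Itgb3, none of them called.

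Lamb3, of the hemidesmosomal laminin, was at 6.01, 4.53 and 12.9 CPM in LIFR KO against 16.9, 15.9, 22.2 and 8.80 CPM in shPCBP1 (log2 fold change −1.09 ± 0.38, adjusted p = 0.0946). LIFR KO clone 3 lay within the range of the reference lines. Itgb7, the leukocyte beta chain, was at 9.28, 5.07 and 6.05 CPM in LIFR KO and 13.4, 7.76, 28.9 and 43.4 CPM in shPCBP1 (log2 fold change −1.52 ± 0.49, adjusted p = 0.0856), with CT clone 1 inside the range of the LIFR KO clones. Itga5 and Itgb7 lie 1112342 bp apart on chromosome 15. The other genes tested within 1 Mb had a median log2 fold change in LIFR KO of −0.47 around Itga5 (19 genes, 10 called) and −0.77 around Itgb7 (32 genes, 21 called). Over all genes the median was −0.16 and 6.47% were called. On other chromosomes the median was −0.46 around Itgb4 (60 genes, 7 called), −0.397 around Lamb2 (59, 5 called), −0.059 around Itgb5 (14, 2 called), 0.045 around Itga2 (7, 0 called) and 0.14 around Lamb1 (12, 0 called). These values are without the GC correction. Whether the neighbourhood sets the level of Itga5 or Itgb7 was not tested.

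The remaining genes overlapped between LIFR KO and shPCBP1. The laminin receptor chain Itga6 was at 99.4, 122 and 115 CPM in LIFR KO, the RGD receptor chain Itgav at 126, 194 and 243 CPM and Itgb6, the epithelial partner of Itgav, at 25.3, 26.6 and 50.3 CPM. Itgb2 was at 2.52, 1.46 and 7.46 CPM, with clone 3 above every shPCBP1 line and clone 2 below, and Nid1 at 4.54, 5.66 and 5.79 CPM against 4.23, 4.69, 2.67 and 3.22 CPM. Summed leukocyte markers were at 7.26 to 13.6 CPM in LIFR KO. The low-level genes Itga7 (0.644, 1.33 and 1.89 CPM in LIFR KO), Nid2 (0.483, 0.627 and 0.473 CPM), Itga10 (1.24 to 2.62 CPM), Itgae (1.11 to 2.90 CPM) and Lamc3 (0.291 to 0.772 CPM) overlapped too, and Itgal and Itgam, below the filter, stayed at or under 0.483 CPM in all 11 libraries of Dataset 1. Of 67 surrounding genes tested, 0 were called higher and 12 lower, where 0.911% and 5.55% of all genes were. Among the 12 were the tensin Tns2 (log2 fold change −1.20 ± 0.22), the talin Tln2 (−0.81 ± 0.16), the hemidesmosomal linker Plec (−1.22 ± 0.24), the integrin ligand Mfge8 (−0.92 ± 0.12) and the basement membrane collagen Col18a1 (−0.71 ± 0.18). With the GC correction 0 of the 67 were called.

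FAM3C KO and LIFR KO were also compared with each other directly, which tests whether the knockouts differ. The shPCBP1 lines enter this comparison only through the shared spread. Lifr itself was below every shPCBP1 line in the FAM3C KO clones. Itga5, Itgb5 and Itgb7 were higher in FAM3C KO and Lamb1 lower, 4 of 27 genes called where 8.28% of all were (6.83% higher and 1.45% lower). With the 2 knockout groups fitted alone, limma called 0 genes and 0 of the 26 tested. The samples did not overlap for 8 of the 27, against 22.8% of all, 7 higher (16.1% of all) and 1 lower (6.73% of all). Under median-ratio rescaling the split of all calls moved from 862 higher and 183 lower to 500 and 325. Itga5 was at 54.1, 51.1 and 50.4 CPM in FAM3C KO and 22.7, 16.1 and 26.97 CPM in LIFR KO (log2 fold change 1.27 ± 0.19, adjusted p = 0.0247), Itgb5 differed by 0.99 ± 0.21 (adjusted p = 0.0387) and Itgb7 by 2.12 ± 0.53 (adjusted p = 0.0498). All 3 FAM3C KO clones were above all 3 LIFR KO clones for these genes. Lamb1 was at 2.26, 5.52 and 1.54 CPM in FAM3C KO and 23.3, 9.94 and 7.25 CPM in LIFR KO (log2 fold change −2.10 ± 0.47, adjusted p = 0.0411), below in every FAM3C KO clone. Of these 4 genes none was called without FAM3C KO clone 1 or 3, Itga5 and Lamb1 were without FAM3C KO clone 2 and Itga5 alone without LIFR KO clone 2. More than 4 of the 27 genes were called without LIFR KO clone 1 or 3, and the range of counts over all genes is given in the last section. With the GC correction Lamb1 stayed called (−2.40, adjusted p = 0.0658), while Itga5 (0.75, adjusted p = 0.105), Itgb5 (0.48, adjusted p = 0.106) and Itgb7 (1.56, adjusted p = 0.132) did not. Against LIFR KO clone 1 alone, a single library, the log2 fold changes were 1.19 for Itga5, −3.07 for Lamb1 and −0.56 for Lamb2. The 2 comparisons with shPCBP1 share their reference lines, so their values are not independent of each other. For Itga2, which was higher in every clone of both knockouts, the direct difference was −0.16 ± 0.29 (adjusted p = 0.718). In the lists, 15 of 67 surrounding genes were called higher in FAM3C KO and 0 lower, where 6.83% and 1.45% of all genes were. With the GC correction 0 of the 67 were called.

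The single FAM3C/LIFR double KO line had no replicate and is described without a test. Lamb1 was at 0.328 CPM there, below all 10 other libraries, and made up 0.674% of the laminin beta chains per kb. Itga3, Itga10, Itga11 and Lamc3 were also below all 10, 5 of the 27 genes (18.5%), where 20.9% of all genes were. Itgb6 was at 56.8 CPM, above all 10, as 5.4% of all genes were. Of the 27 genes, 8 (29.6%) were above all 4 shPCBP1 lines and 13 (48.1%) below them, where 26% and 53.8% of all genes were, and this library carried the GC shift. Itga2 at 191 CPM, Itga6 at 128 CPM, Itgb2 at 6.79 CPM and Nid1 at 5.53 CPM were above the shPCBP1 lines, as they were in all 3 FAM3C KO clones. Itga2 was also above the shPCBP1 lines in all 3 LIFR KO clones. Itga5 at 30.4 CPM, Itgb4 at 23.1 CPM and Itgb5 at 16.4 CPM were below the shPCBP1 lines, as they were in all 3 LIFR KO clones. Itgb3 at 22.7 CPM and Lamb2 at 33.5 CPM were below the shPCBP1 lines as well, as were Lama5 at 227 CPM, Lamc1 at 173 CPM and Itga3 at 409.9 CPM. Itgb7 at 17.8 CPM, Lamb3 at 11.7 CPM and Itgb1 at 399 CPM were within their range, and Itga1 at 33.7 CPM and Itgav at 207 CPM above it.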

How the data were processed

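RNA-Seq of NMuMG mouse mammary epithelial cells was analysed from 2 deposited tables of normalized CPM values, 1 per dataset. Per the labels and the study's methods, the authors made rRNA-depleted directional libraries, trimmed the reads, aligned them with Bowtie2 to GRCm38/mm10, quantified and normalized them to CPM in Partek Flow and tested them with DESeq2; how strand was used in counting is not given in the sources used here. In Dataset 2 a gene at its lowest value, 0.0001 CPM, is written as listed at 0. The Dataset 2 table also holds the authors' group means, ratios and fold changes, which were not used.

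CPM are not counts, and 87.8% to 93.0% of low values per library were whole multiples of 1 read (tolerance 0.02), short of the nearly all needed to recover reads, so limma 3.58.1 (R 4.3.3) was fitted to log2(CPM + 0.1) with an intensity trend. In each dataset, genes averaging under 0.5 CPM were not tested. The Benjamini-Hochberg adjustment ran over all genes tested, with the study's threshold of 0.07. The 10 single-knockout and shPCBP1 lines shared one fit, and the double KO line was left out of it. Implied library totals come from the lowest value of each library in Dataset 1 and from the commonest step between low values in Dataset 2. Groups came from the labels. The GC correction subtracted a loess curve (span 0.3) of each library's log2 difference against the GC content of exons. Other tools were Python 3.11.15, pandas 2.3.3, scipy 1.17.1 and matplotlib 3.10.9, and the fit was tested on simulated data.

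The genes, the gene lists and the tests were chosen with earlier results of these data known. Values in every sample are given mainly for genes called in any comparison or with a group mean of at least 10 CPM, and most other genes by their range; the results of 1 of these genes, and of 1 listed adaptor, are not reported here, though the counts include them. Alternatives were another scaling (median-ratio, quantile), a pseudocount of 1 CPM, no filter or one of 2 CPM, a threshold of 0.05, the replicate number as a block, fits of 2 groups alone, the GC correction, LIFR KO clone 1 alone and each library left out in turn. Promoter sequences are from RefSeq (GRCm38.p6), and gene positions from GENCODE on GRCm38. Itga1, Itga10 and Itgam overlap exons of other genes on the same strand.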

Additional observations from a re-analysis of the deposited data

Results flagged for a closer look

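When FAM3C KO was set directly against LIFR KO, which tests the difference between the knockouts, 4 of the 27 genes tested were called (14.8%), where 8.28% of all genes were. None was called by limma without FAM3C KO clone 1 or 3, or with the 2 groups fitted alone, where 26 were tested. The log2 fold change of FAM3C KO over LIFR KO was 1.27 for Itga5, 0.99 for Itgb5 and 2.12 for Itgb7, each higher in 3 of 3 FAM3C KO clones. It was −2.10 for Lamb1, lower in 3 of 3 FAM3C KO clones. The adjusted p by limma was 0.0247 for Itga5, 0.0387 for Itgb5, 0.0498 for Itgb7 and 0.0411 for Lamb1, and with the GC correction Lamb1 was the one of them that remained called. Groups of 3 were too small to test for a single sample far from the others, and in the 4 shPCBP1 lines no gene described here had such a sample.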

How the results depend on the processing

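In shPCBP1 against NMuMG, 233 of 238 recomputed values for single genes kept their direction and their side of the threshold, and the other 5 lost the call. Leaving out each sample gave 8115 to 8955 genes called (9123 with all) and 20 to 23 of the genes described here (22 with all), where the lone sample left in an arm is assumed to vary like the other group. The Dataset 1 counts were less stable, and the cause was not tested except where the setting itself shows it.

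For FAM3C KO against shPCBP1 (39 genes, 0 of the 27), a filter of 2 CPM gave 12 genes, 2 groups fitted alone 1048 genes and 7 of the 27, the GC correction 237 genes and 1 of the 27, leaving out LIFR KO clones 2 and 3 (chosen after seeing the data) 1060 genes and 7 of the 27, and leaving out each library 3 to 359 genes and 0 to 2 of the 27. For LIFR KO against shPCBP1 (816 genes, 4 of the 27), median-ratio rescaling gave 467 genes, a threshold of 0.05 359 genes, 2 groups alone 35 genes and 0 of the 27, the GC correction 44 genes and 1 of the 27, clone 1 alone (a single library assumed to vary like the other groups) 281 genes and 1 of the 27, and leaving out each library 5 to 7234 genes and 0 to 14 of the 27. For FAM3C KO against LIFR KO (1045 genes, 4 of the 27), a threshold of 0.05 gave 587 genes, 2 groups alone 0 genes and 0 of the 26 tested, the GC correction 74 genes and 1 of the 27, and leaving out each library 1 to 6673 genes and 0 to 13 of the 27. The fit of 2 groups of 3 leaves fewer samples to estimate the spread.

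Same-numbered samples did not deviate together (correlations of −0.189 to 0.154 in Dataset 1 and 0.051 in Dataset 2), so the numbers do not pair them. With the replicate block, which leaves out the unaltered line, 15 genes and 0 of the 27 were called for FAM3C KO, 10 and 0 for LIFR KO, 0 and 0 for the direct comparison, and 9235 genes and 22 of 23 in Dataset 2. With the block and the GC correction these were 23, 3 and 0 genes, and 0 of the genes described here in each knockout comparison. The log2 fold change of Itga2b in LIFR KO went from −0.52 to 0.063 with the GC correction. Of the other recomputed single-gene values, 149 of 168 for FAM3C KO, 75 of 125 for LIFR KO and 127 of 166 for the direct comparison kept their direction and side of the threshold.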
